A study of Rattus norvegicus with 2 samples.

Results

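The GABAergic neurons of the rat hypothalamus, 397 single-cell barcodes among 9012, were described across genes in 2 libraries, Control and SC300. Members were chosen by measured values of these same matrices: a barcode was counted as a GABAergic neuron when it held 200 or more detected genes, at most 30% of its UMIs in mitochondrial genes, at least 4 of 6 neuronal transcripts (Snap25, Syt1, Stmn2, Snhg11, Celf4 and Rbfox3), 3 or more UMIs of Gad1, Gad2 and Slc32a1 together and at most 1 UMI of Slc17a6. A UMI is a molecular tag that marks 1 captured transcript. By these limits 218 members came from 4488 barcodes of Control and 179 from 4524 barcodes of SC300. On postnatal day 0.5 the SC300 females were given a capsule of silicone that held 300 µg of estradiol benzoate (EB), an ester of the ovarian hormone estradiol. The methods give Control females an oil-only capsule, whereas the labels call them intact. All were female Sprague Dawley rats of 4 weeks (postnatal day 29), and the hypothalami of 3 rats were pooled before each library was made. Each group is therefore 1 library, no test between groups was possible, and intervals given here are 95% intervals that cover counting error only.

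GABAergic neurons make the inhibitory transmitter GABA from glutamate with the decarboxylases encoded by Gad1 and Gad2, and load it into synaptic vesicles with the transporter encoded by Slc32a1. In the hypothalamus they are intermingled with glutamatergic neurons, which load vesicles with the transporter encoded by Slc17a6. Many GABAergic neurons here also make neuropeptides or dopamine, and several of these populations govern feeding, growth hormone and prolactin release, and carry receptors for gonadal steroids.

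The genes used by the rule were as the rule required and support nothing further. Gad1 was detected in 99.1% of members in Control and 97.2% in SC300, Gad2 in 95% and 91.1%, and Slc32a1 in 95% and 94.4%. The summed UMIs of these 3 genes had a median of 42 per member in Control and 41 in SC300, far above the limit of 3. Only 1 member in Control and 2 in SC300 stood exactly at that limit, and no neuronal barcode with at most 1 Slc17a6 UMI stood at 2 just outside it. At the Slc17a6 limit, 5 and 3 members held 1 UMI, and 2 and 2 barcodes were left out with 2 UMIs. Of the other neuronal barcodes, 80 in Control and 87 in SC300 were glutamatergic (2 or more Slc17a6 UMIs, at most 2 UMIs of the GABA genes), 24 and 27 were past both limits and 13 and 9 past neither. The choice was least sharp at the neuronal genes, where 68 and 49 members held exactly 4 of the 6 and 9 and 14 barcodes were left out with 3.

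Members were deeply covered. They held a median of 28906 UMIs and 5222 genes in Control and 29716 UMIs and 5270 genes in SC300, with a range of 2519 to 124172 UMIs and 3994 to 174684 UMIs. The median mitochondrial share was 11.1% in Control and 12.4% in SC300. In all, 6862698 UMIs in Control and 5981257 UMIs in SC300 were summed over members, and levels are given as counts per 1000000 UMIs of these sums (CPM). The libraries shared 9 barcode sequences, 1 of them a member's. A doublet caller marked 7 members in each library. In Control 18 members and in SC300 10 held 3 or more markers and 10 or more marker UMIs of another cell class. Of these, 14 in Control and 5 in SC300 held markers of astrocytes.

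GABAergic neurons made up 5.55% of the 3928 barcodes kept in Control (4.85 to 6.31%, exact binomial) and 4.57% of the 3919 kept in SC300 (3.94 to 5.27%). Among neuronal barcodes they made up 65.1% of 335 in Control (59.7 to 70.2%) and 59.3% of 302 in SC300 (53.5 to 64.9%). The log2 ratio of the first share, SC300 over Control, was -0.28 (-0.57 to 0.01) and that of the second -0.13 (-0.43 to 0.16), so that neither difference exceeded counting error. With a limit of 10% mitochondrial UMIs only 76 and 25 members were left and the first ratio was -1.16.

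To show what sets GABAergic neurons apart beyond the rule, they were compared with the glutamatergic neurons within each library. Of 8995 genes with 100 or more UMIs summed over both classes and libraries, rule genes left out, 90 (1%) were 2-fold or more higher in GABAergic neurons in both libraries and 83 (0.923%) were 2-fold or more lower in both. Transcription factors of the Dlx family, which specify GABAergic neurons of the forebrain, were nearly private to the members. Dlx1 had 696 UMIs over the members of Control and 591 over those of SC300, against 1 and 2 UMIs in glutamatergic neurons. Dlx5 had 220 and 182 UMIs against none in either library, a log2 ratio of at least 5.10 in Control and at least 5.23 in SC300 when the glutamatergic sum is set at the 3 UMIs a count of 0 allows. Six6, a homeodomain factor of the ventral hypothalamus, was less exclusive, with log2 ratios of 3.91 and 3.71.

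The remaining genes at the GABAergic end of this comparison were mostly transmitter and peptide genes of small populations. They included Agrp (log2 ratios 7.53 in Control and 8.31 in SC300), Ghrh (6.32 and 9.36), Gal (3.43 and 3.66) and Galp (at least 4.40 in Control, where glutamatergic neurons had 0 UMIs, and 3.77), which encode the peptides AgRP, growth hormone-releasing hormone, galanin and galanin-like peptide. Hdc, the enzyme of histamine synthesis, was detected in 10 and 6 members. Ada, an adenosine deaminase, was found in 10 and 8 members, and Sncg, a synuclein, in 15 and 11. Slc18a2, the vesicular monoamine transporter, stood at 2.87 and 4.06, and Th, the rate-limiting enzyme of dopamine synthesis, at 5.32 and 2.76. AABR07059679.2, a gene model without a name, was spread widely, over 91 and 81 members.

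At the glutamatergic end stood transcription factors of other hypothalamic lineages. Sim1, which specifies neurons of the paraventricular and supraoptic nuclei, had 0 UMIs in the members of both libraries and 84 and 121 UMIs in glutamatergic neurons. Uncx likewise had 0 UMIs in members and 80 and 54 in glutamatergic neurons. Fezf1, a factor of the ventromedial hypothalamus, had 1 and 1 UMIs against 217 and 146. Nhlh2, Nxph4, Nrn1, Pvalb and Spp1 completed this end, with log2 ratios between -4.72 and -8.48 over both libraries, those of Nrn1 and Spp1 in Control being bounds since members had 0 UMIs there. Oxt, the oxytocin precursor, had the lowest ratio (-11.45 and -9.92), its 77159 and 166609 glutamatergic UMIs standing against 59 and 278 in members.

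**Figure D1:**
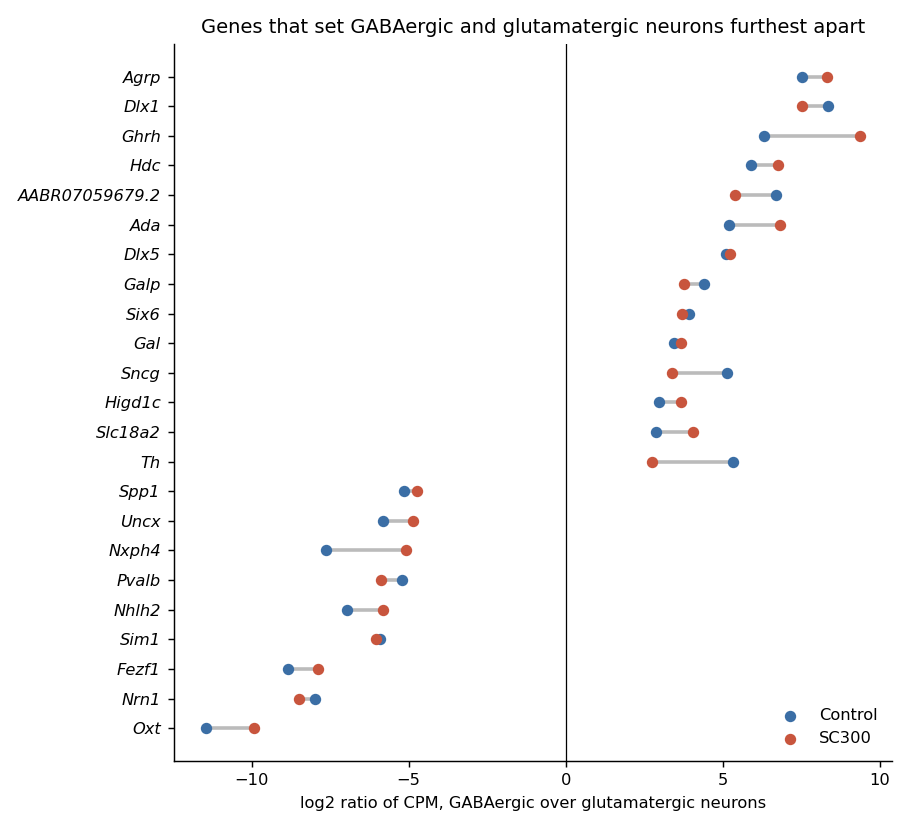
Log2 ratio of CPM in GABAergic over glutamatergic neurons for 14 of the 15 genes highest and 9 of the 10 genes lowest in both libraries, rule genes left out, with blue points for Control and red points for SC300. Every gene shown keeps its side of 0 in both libraries, from Oxt at -11.45 in Control to Ghrh at 9.36 in SC300; a class with 0 UMIs was set at 3, so such points are bounds.

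Some genes of the machinery shared by all neurons stood apart too, where 1% of all genes were higher and 0.923% lower in both libraries. Of 19 genes for synaptic vesicles and release 4 were 2-fold or more higher in GABAergic neurons in both libraries and none lower. These 4 were Nrxn3 (2.04 and 1.51 on the log2 scale), Cplx2 (1.61 and 1.31), Cplx1 (1.06 and 1.05) and Sv2c (1.76 and 1.46), which encode a presynaptic adhesion molecule, a pair of complexins that act at vesicle fusion, and a vesicle protein. Of 12 GABA receptor subunits none was past 2-fold in both libraries. Grik1, a kainate receptor subunit, was the only 1 of 12 glutamate receptor subunits past it, at 1.72 and 1.72. Of 21 channel genes 3 were lower in GABAergic neurons: Scn1a, a sodium channel (-1.08 and -1.08), Cacna2d1, a calcium channel subunit (-2.39 and -2.10), and Kcna1, a potassium channel (-2.71 and -1.80). Of 10 calcium-binding proteins 3 were lower: Calb1, the calcium buffer calbindin (-1.09 and -1.05), Cabp1 (-1.82 and -1.25) and Pvalb, already named. Of 4 receptors for metabolic and pituitary hormones 3 were higher in both libraries, among them Calcr, the calcitonin receptor (1.17 and 1.21).

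Within the members, some transcripts were held by few neurons. Of genes with 500 or more UMIs in members, the 15 with the largest share of UMIs in the 40 members richest in them, of 397, were Hdc, Nts, Tac3, Cck, Sncg, Ghrh, Agrp, Avp, Npy, Prss23, Prph, Trh, Maob, Th and Cartpt, with shares from 95.2% for Cartpt to 100% for Hdc. Of these Hdc, Sncg, Prss23, Prph, Maob and Th do not encode peptide precursors. By contrast Dlx1 held 41.1% of its UMIs there. A member was called rich in a peptide precursor when it held 10 or more of its UMIs, a level that no more than 1 microglial and 1 oligodendrocyte barcode of either library reached for the precursors named next. In Control 145 of 218 members (66.5%, 59.8 to 72.7%) and in SC300 140 of 179 (78.2%, 71.4 to 84.0%) were rich in at least 1 precursor. Members rich in 4 or 5 precursors numbered 1 and 0 in Control and 9 and 4 in SC300.

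Sst, which encodes somatostatin, was the most frequent, with 40 of 218 members in Control (18.3%) and 40 of 179 in SC300 (22.3%). The neurons rich in it were also high in Calb1 (538 against 121 CPM in Control and 409 against 109 CPM in SC300 for the other members), in Calcr (326 against 87.2 CPM in Control and 252 against 64.3 CPM in SC300) and in Bcl11b, a zinc-finger factor (65.2 against 9.85 CPM in Control and 67.5 against 11.4 CPM in SC300). The somatostatin receptor gene Sstr2 stood at 47.1 against 9.30 CPM in Control and 55.7 against 6.69 CPM in SC300, and the GABA receptor subunit Gabrd at 20.3 against 0.365 CPM in Control and 18.6 against 0.432 CPM in SC300. Dlx1 was low in them (3.62 against 126 CPM in Control and 31.2 against 118 CPM in SC300). The genes named here for the Sst-rich and other rich members were picked from the lists after their values were seen.

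Agrp and Npy marked the feeding neurons of the arcuate nucleus, whose peptides stimulate food intake. Rich in Agrp were 17 of 218 members in Control (7.80%) and 11 of 179 in SC300 (6.15%), and rich in Npy 19 of 218 members in Control (8.72%) and 12 of 179 in SC300 (6.70%). All 17 Agrp-rich members in Control and 10 of 11 in SC300 were also rich in Npy, against 2 of 201 and 2 of 168 other members. Lepr, the leptin receptor, stood at 39.5 against 1.27 CPM in Control and 42.9 against 1.78 CPM in SC300 for the other members, and Ghr, the growth hormone receptor, at 86.0 against 9.71 CPM in Control and 109 against 6.75 CPM in SC300. Tbx3, a T-box factor, stood at 29.2 against 10.8 CPM in Control and 42.9 against 13.9 CPM in SC300 and the GABA receptor subunit Gabre at 153 against 41.1 CPM in Control and 194 against 32.1 CPM in SC300. Summed over all members, Agrp had 1036 CPM in Control and 860.0 CPM in SC300 and Npy 163 CPM in Control and 112 CPM in SC300, with log2 ratios of -0.27 and -0.54, and the 3 highest members of SC300 alone held 55.1% of the Agrp UMIs.

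Rich in Gal were 38 of 218 members in Control (17.4%) and 31 of 179 in SC300 (17.3%). Within them lay the Ghrh-rich members, 8 of 218 members in Control (3.67%) and 13 of 179 in SC300 (7.26%), of which 8 of 8 in Control and 11 of 13 in SC300 were also rich in Gal. Ghrh-rich members were high in Foxp2, a forkhead factor (152 against 10.3 CPM in Control and 109 against 9.33 CPM in SC300), in Slc18a3, the vesicular acetylcholine transporter (89.7 against 1.06 CPM in Control and 79.8 against 2.01 CPM in SC300), in Th (296 against 66.0 CPM in Control and 206 against 10.6 CPM in SC300) and in Esr1, the estrogen receptor alpha gene (89.7 against 6.66 CPM in Control and 27.2 against 2.74 CPM in SC300). Nts, the neurotensin precursor, was rich in 3 of 8 and 6 of 13 of them, and in 5 of 210 and 7 of 166 other members. Their other peptides differed between the libraries. None of the 8 Ghrh-rich members in Control and 7 of 13 in SC300 were rich in Tac1, the substance P precursor; 2 of 8 and 6 of 13 were rich in Cartpt, the precursor of CART; and 0 of 8 and 4 of 13 were rich in Pnoc, the nociceptin precursor. These sets are small, and the differences in shared peptides were not tested.

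The other sets were looser. Rich in Tac1 were 22 of 218 members in Control (10.1%) and 24 of 179 in SC300 (13.4%), in Pnoc 21 of 218 members in Control (9.63%) and 20 of 179 in SC300 (11.2%) and in Penk, the enkephalin precursor, 19 of 218 members in Control (8.72%) and 20 of 179 in SC300 (11.2%). Trh, the precursor of thyrotropin-releasing hormone, was rich in 14 and 11 members, of which 5 and 4 were rich in Cartpt too. The Trh-rich members were high in Nkx2-1, a factor of the ventral hypothalamus (61.8 against 16.2 CPM in Control and 93.7 against 27.5 CPM in SC300). The Penk-rich members were high in Htr2c, a serotonin receptor (199 against 73.4 CPM in Control and 104 against 47.0 CPM in SC300), and Gal-rich members in Hdc (226 against 3.42 CPM in Control and 213 against 49.5 CPM in SC300) and Slc18a2 (73.3 against 10.3 CPM in Control and 74.2 against 18.9 CPM in SC300), the genes of histamine synthesis and monoamine storage. Hdc UMIs were found in just 7 of 38 and 4 of 31 Gal-rich members.

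**Figure D2:**
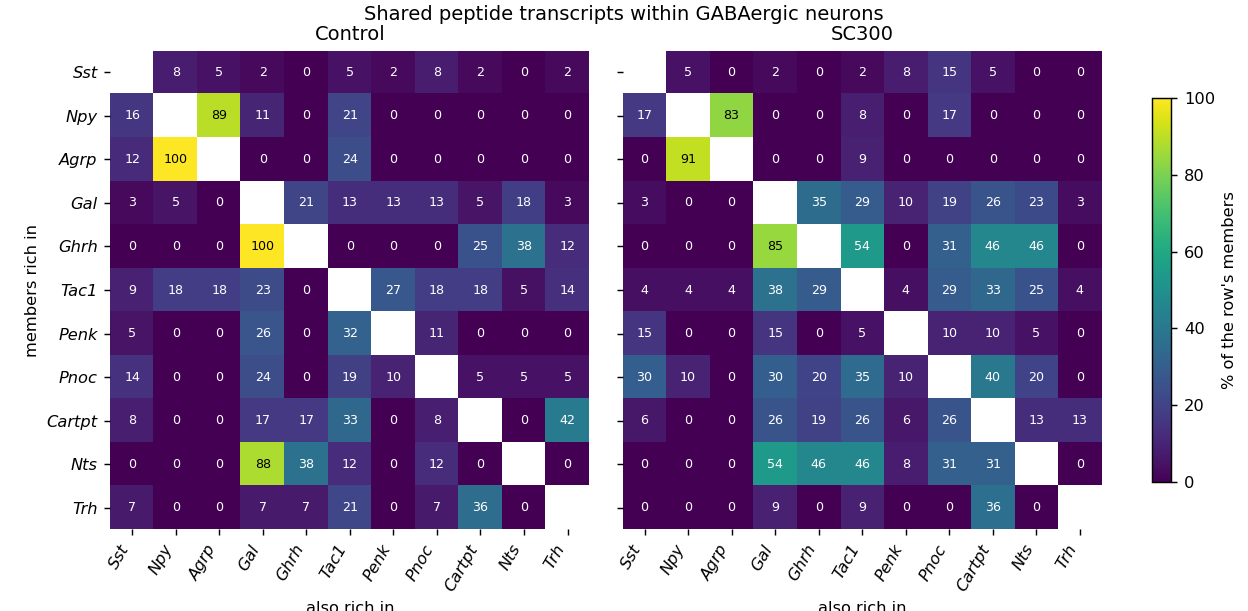
Members rich in 1 peptide precursor (rows) that were also rich in a second (columns), as a percentage of the row's members, for Control and SC300. The Agrp and Npy rows overlap almost fully in both libraries (17 of 17 and 10 of 11 of the Agrp-rich members), the Ghrh row meets the Gal column (8 of 8 and 11 of 13), and no other peptide was shared by more than 15% of the Sst row (Pnoc in SC300, 6 of 40).

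Promoters of 4 genes are shown as examples of peptide and transmitter genes described here whose windows hold the full cAMP response element, the palindrome TGACGTCA that CREB family factors are known to bind. Sequences are those of RefSeq, build GRCr8, from 250 bases before to 50 bases after the annotated start, 5′ to 3′ on the gene's strand, with the element in capitals. They were matched by symbol for 29 of 39 neuropeptide genes and 15 of 16 genes of other transmitters. The element was found in the windows of 4 neuropeptide genes (Cartpt, Scg2, Sst and Vgf) and of 3 other transmitter genes (Th, Slc18a2 and Nos1), whereas 612 of 33469 windows of all genes (1.83%) held it. Of 14 immediate-early genes matched, 4 held it, of 30 homeodomain and patterning factors none did, and neither did Gad1, Gad2 and Slc32a1. The Sst window (chr11:90461296-90461595, plus strand) has the element 2 bases after the annotated start, the Cartpt window (chr2:32991186-32991485, minus strand) 142 bases before it, the Vgf window (chr12:25276971-25277270, minus strand) 90 bases before it and the Th window (chr1:207508169-207508468, minus strand) 69 bases before it.
Sst: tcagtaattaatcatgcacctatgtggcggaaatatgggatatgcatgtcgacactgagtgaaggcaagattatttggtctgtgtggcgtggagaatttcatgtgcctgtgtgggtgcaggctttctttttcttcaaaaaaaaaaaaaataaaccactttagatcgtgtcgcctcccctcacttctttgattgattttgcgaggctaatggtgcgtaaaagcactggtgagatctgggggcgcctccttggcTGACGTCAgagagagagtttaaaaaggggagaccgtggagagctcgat
Cartpt: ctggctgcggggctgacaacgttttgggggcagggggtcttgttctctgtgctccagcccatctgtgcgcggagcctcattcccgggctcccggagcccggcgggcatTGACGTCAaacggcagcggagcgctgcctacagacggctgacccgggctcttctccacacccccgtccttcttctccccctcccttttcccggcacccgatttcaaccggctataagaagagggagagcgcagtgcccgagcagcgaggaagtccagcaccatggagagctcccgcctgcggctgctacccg
Vgf: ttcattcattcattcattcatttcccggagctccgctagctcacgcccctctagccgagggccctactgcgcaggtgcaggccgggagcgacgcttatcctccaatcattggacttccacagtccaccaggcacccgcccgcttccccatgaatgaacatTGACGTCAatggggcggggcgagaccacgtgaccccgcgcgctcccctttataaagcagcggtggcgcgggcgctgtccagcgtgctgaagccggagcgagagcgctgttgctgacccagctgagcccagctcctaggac
Th: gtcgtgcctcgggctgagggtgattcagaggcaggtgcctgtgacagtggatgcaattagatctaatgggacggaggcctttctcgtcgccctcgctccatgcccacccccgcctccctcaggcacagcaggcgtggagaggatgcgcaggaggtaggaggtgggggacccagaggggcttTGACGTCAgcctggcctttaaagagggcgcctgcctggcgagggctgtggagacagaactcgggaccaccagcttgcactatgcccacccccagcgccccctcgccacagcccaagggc
The match is a description of these letters. The 4 genes did not move alike between the libraries. Sst had 1304 CPM in Control and 1867 CPM in SC300 (log2 ratio 0.52), Cartpt 175 CPM in Control and 568 CPM in SC300 (1.70), and Vgf, a secreted neuronal protein, 307 CPM in Control and 428 CPM in SC300 (0.48), whereas Th had 74.6 CPM in Control and 27.4 CPM in SC300 (-1.44).

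Between the libraries, most genes of the GABAergic neurons stayed close together. Of 8081 genes with 100 or more UMIs summed over the members of both libraries, 73 (0.903%) were 2-fold or more higher in SC300, 88 (1.09%) were 2-fold or more lower, and the median log2 ratio was -0.05. Many of the 161 (1.99%) rested on few neurons. In 45 of the higher and 63 of the lower genes, 3 members held over 30% of the UMIs in the library where the gene was higher, which left 28 and 25 genes spread over members. Leaving out the members with markers of another class gave 63 higher and 38 lower genes, of which 49 and 34 were among the first 73 and 88. Genes named next are those of the spread set unless said otherwise.

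**Figure D3:**
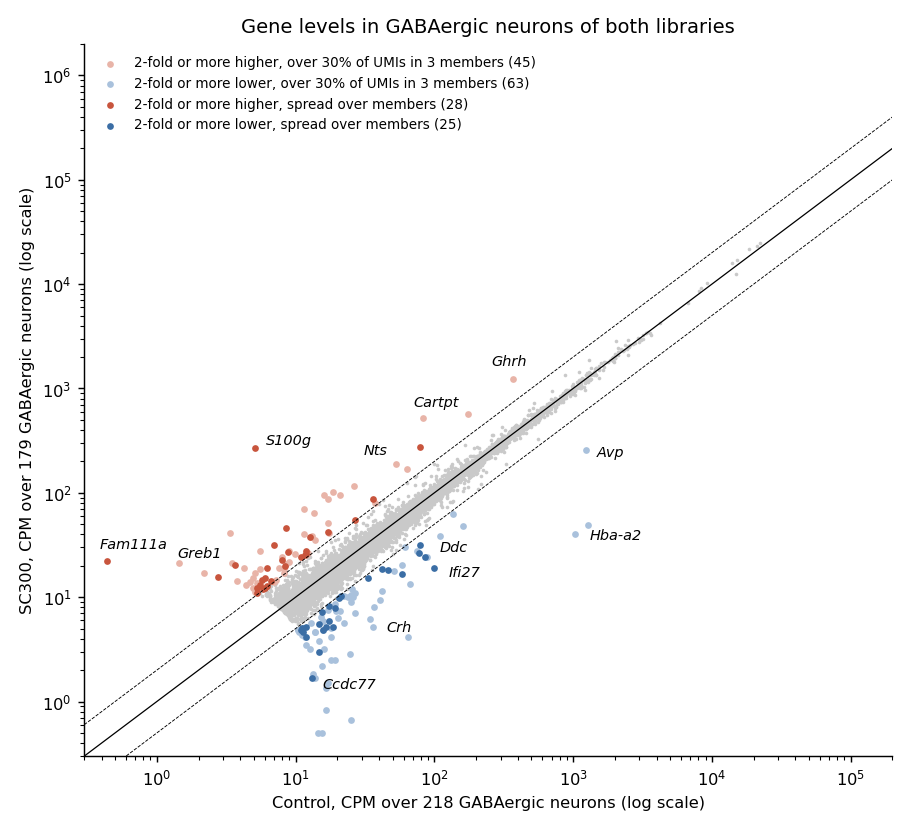
CPM of 8081 genes summed over the GABAergic neurons of Control (x axis) and SC300 (y axis), both on log scales, with equality as a solid line and 2-fold as dashed lines. Most genes lie between the dashed lines; S100g and Fam111a stand furthest above, Hba-a2 (-4.69) is among the furthest below, and Ccdc77 and Ifi27 are the lowest of the genes spread over members. Fam111a, at 0 UMIs in Control, is drawn at 3 UMIs.

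S100g, which encodes the calcium-binding protein calbindin-D9k, had the largest difference among tested genes with UMIs in both libraries. It had 35 UMIs in Control (5.10 CPM) and 1603 in SC300 (268 CPM), a log2 ratio of 5.72 (5.23 to 6.24). At least 1 UMI was found in 14 members of Control (6.42%) and 79 of SC300 (44.1%), and after thinning each member to 10000 UMIs, with 7 and 4 shallower members left out, in 3.79% and 34.3%. Microglia, whose median depth was 7254 and 7749 UMIs, held it in 0.211% and 0.429% of barcodes. Glutamatergic neurons likewise went from 4 to 551 UMIs, and astrocytes from 5 to 17 UMIs. Within SC300 the 29 members with 10 or more S100g UMIs were compared with the remaining members of that library. Scg2, a granin of secretory granules, stood at 2752 against 1056 CPM with UMIs in all 29, Pdyn, the dynorphin precursor, at 123 against 17.0, and Greb1 at 45.8 against 14.9. S100g was found in 11 of 13 Ghrh-rich members, in 10 of 20 Penk-rich members and in 23 of 40 Sst-rich members. Of all SC300 members 44.1% held it. Of the 29, 7 were rich in Sst, as were 22.3% of all SC300 members. Summed over the 29, however, Sst stood at 4889 CPM against 1241 in the remaining members. S100g was low where Tac1 was rich (44.9 CPM against 313 in other members).

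Genes of steroid hormone action were few in this depth. Greb1, known as an estrogen-induced gene, had 25 UMIs in Control (3.64 CPM) and 121 in SC300 (20.2 CPM), a log2 ratio of 2.47 (1.84 to 3.16), and was found in 18 and 61 members. It was higher in SC300 in glutamatergic neurons (1.70) and in astrocytes (0.62) as well. Pgr and Esr1 lay below 100 UMIs and were not tested. Pgr, the progesterone receptor gene, had 7 and 19 UMIs (0.33 to 3.13 around a log2 ratio of 1.64), and Esr1 had 67 and 29 UMIs (-1.01, -1.69 to -0.36). Esr2, the estrogen receptor beta gene, had 1 UMI in each library. Kiss1, the kisspeptin precursor, was found in 4 and 15 members with a highest count of 1 and 48 UMIs, and 3 members of SC300 and none of Control were rich in it. Glutamatergic neurons held more of it and went the other way, with 434 and 145 UMIs (134.9 and 39.2 CPM, log2 ratio -1.78).

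The other genes at the upper end were of several kinds. Creb3l1, a membrane-bound transcription factor, had 61 and 163 UMIs (1.62), Pou3f1, a POU factor, 43 and 114 (1.60), and Opn3, an opsin, 87 and 226 (1.58). Each of these 3 was higher in SC300 in glutamatergic neurons too, with log2 ratios of 1.27, 3.19 and 0.70. In astrocytes the ratios were 0.51, 0.23 and 0.63, and in mature oligodendrocytes -0.33, -0.20 and -0.18.

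Several differences were not those of GABAergic neurons alone. Fam111a, a nuclear protease, had 0 UMIs in Control and 132 UMIs in 61 members of SC300, a log2 ratio of at least 5.66 with the Control sum set at 3 UMIs, and it was found in 0.211% of microglia in Control and 48.1% in SC300. LOC100911991 had 2.17 in members, 2.07 in glutamatergic neurons, 3.29 in astrocytes and 2.77 in microglia. Among the lower genes Arl16, a small GTPase, stood at -1.57, -1.53, -1.78 and -2.35 in the same 4 classes, and Mrps10, a mitochondrial ribosomal protein, at -1.57, -1.59, -2.02 and -1.54. Ccdc77 (-2.97), Ifi27, an interferon-induced gene (-2.39), Prim1, a primase subunit (-1.80), and Retsat, retinol saturase (-1.71), were also below 0 in all 4 other classes. Oxt (2.43) was found in 21.1% and 63.7% of members but also in 9.94% and 31.8% of microglia, which were less deeply covered, and 3 members of SC300 held 10 or more of its UMIs (highest 46); the part of free RNA from other cells was not tested. Rps4y2 (-2.30) stood at -1.05 in glutamatergic neurons, -3.05 in mature oligodendrocytes, -0.87 in microglia and 0.21 in astrocytes. It has near-identical copies, and whether reads were split between them was not tested.

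**Figure D4:**
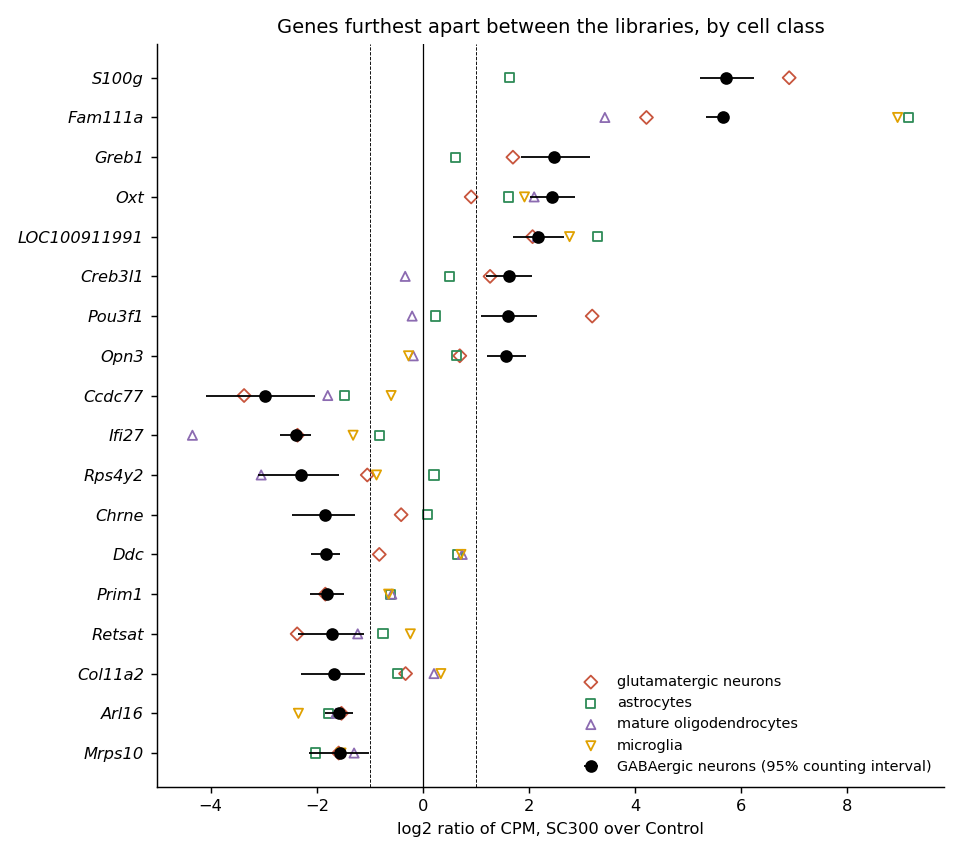
Log2 ratio of CPM, SC300 over Control, for 8 of the 10 genes highest and the 10 lowest in GABAergic neurons (black points with 95% counting intervals), with the same ratio in 4 other classes as open symbols where the class held 20 or more UMIs. S100g, Greb1 and Creb3l1 are higher in both neuronal classes and in astrocytes, and Arl16 and Mrps10 are lower in all 5 classes.

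Among the lower genes were Ddc and Th, which encode enzymes of dopamine synthesis. Dopamine is the transmitter by which tuberoinfundibular neurons restrain prolactin release, but members were not assigned to that population. Ddc, the decarboxylase that makes dopamine from L-DOPA, had 589 UMIs in Control (85.8 CPM) and 144 in SC300 (24.1 CPM), a log2 ratio of -1.83 (-2.11 to -1.57), and was found in 107 and 64 members. In glutamatergic neurons the ratio was -0.82, and in astrocytes it was 0.65. Th had 512 UMIs in Control (74.6 CPM) and 164 in SC300 (27.4 CPM), a log2 ratio of -1.44 (-1.71 to -1.19), with slightly over 30% of its UMIs in 3 members of either library. Members with 10 or more Th UMIs numbered 16 in Control (7.34%, 4.25 to 11.6%) and 4 in SC300 (2.23%, 0.612 to 5.62%), although similar shares held any UMI (15.6% and 13.4%). Slc6a3, the dopamine transporter, had 54 and 8 UMIs in 9 and 3 members. The 16 Th-rich members of Control held 295 CPM of Ddc against 62.9 in the others, and 15 of the 16 had a Ddc UMI. Of the Ddc UMIs of Control, 200 lay in these 16 and 389 in the other members. The 16 also held 2816 CPM of Ghrh against 103 in the others, and 4 of them were rich in it. Slc18a2 did not share the direction, with 24.9 CPM in Control and 31.6 CPM in SC300 (0.34). Slc6a5, the glycine transporter, had 5 and 44 UMIs in 3 and 23 members and was below the 100 UMIs required. Chrne, a nicotinic receptor subunit, had 128 and 31 UMIs (-1.85, -2.46 to -1.27), and Col11a2, a collagen, 113 and 31 (-1.67), both with ratios nearer 0 in glutamatergic neurons (-0.41 and -0.33).

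Of 24 neuropeptide and granin genes tested, 8 were past 2-fold and higher, Oxt among them, and 3 past it and lower, where 0.903% and 1.09% of all genes were, and the median log2 ratio was 0.47, against -0.05 for all genes. In glutamatergic neurons 2 of 22 were past it and higher, 6 lower, and the median was -0.12. Of all 6416 genes tested in glutamatergic neurons, 29 were past it and higher and 28 lower, with a median of -0.02. Cartpt had 1200 UMIs in Control (175 CPM) and 3400 in SC300 (568 CPM), a log2 ratio of 1.70 (1.61 to 1.80), and its rich members numbered 12 of 218 members in Control (5.50%) and 31 of 179 in SC300 (17.3%). The counting intervals of these shares were 2.88 to 9.42% and 12.1 to 23.7%, and they do not cover the spread between rats. Glutamatergic neurons held 992 and 638 CPM of it. The ratio turned to -1.05 among members with at most 10% mitochondrial UMIs. Ghrh had 2547 UMIs in Control (371 CPM) and 7429 in SC300 (1242 CPM) (1.74), and its rich members 8 and 13, with a median of 295 and 608 UMIs in each. Nts had 53.2 CPM in Control and 188 CPM in SC300 (1.82), Cck, the cholecystokinin precursor, 26.5 CPM in Control and 117 CPM in SC300 (2.15), and Pdyn 13.7 CPM in Control and 35.1 CPM in SC300 (1.36). Cck, too, turned at 10% mitochondrial UMIs, to -4.24 (50 UMIs in Control and 1 in SC300). In all 5 genes 3 members held 36.2% (Pdyn) to 75% (Nts) of the UMIs in SC300. Pomc (2.19) had 79.4% of its SC300 UMIs in 3 members. Avp, the vasopressin precursor (-2.26), Crh, the precursor of corticotropin-releasing hormone (-2.81), and Galp (-1.42) were lower, with 53.8%, 99.2% and 94.1% of the Control UMIs in 3 members. Without the 3 highest members of each library, Galp stood at 1.45 (8 and 19 UMIs), and Crh had 2 and 0 UMIs, too few for a ratio. More widely spread were Scg2, found in 98.6% and 99.4% of members (877 CPM in Control and 1347 CPM in SC300, 0.62), and Vgf, found in 71.1% and 81.6% (0.48), while Chga (-0.13) and Chgb (0.14) stayed near 0.

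**Figure D5:**
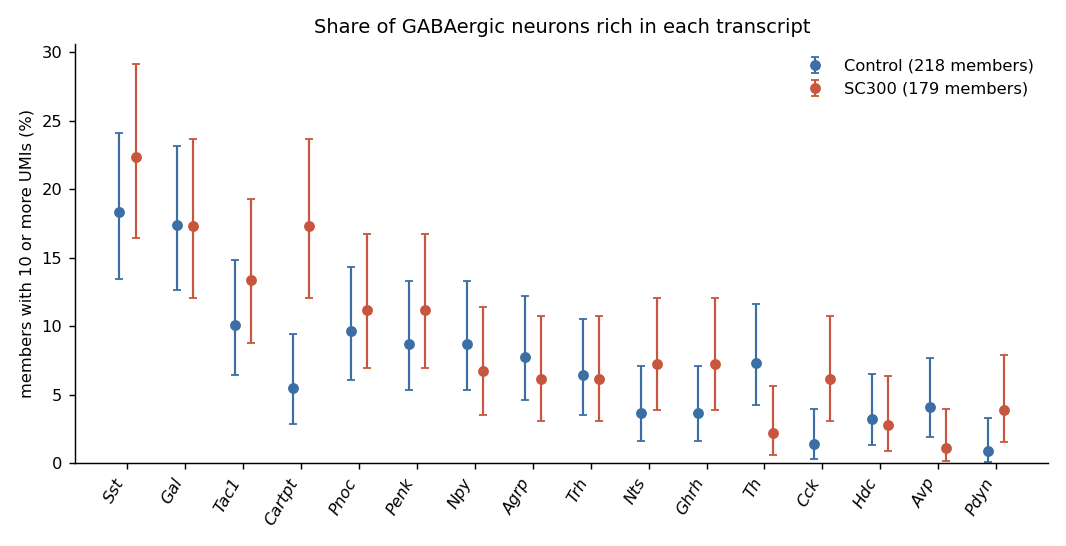
Share of GABAergic neurons with 10 or more UMIs of each transcript in Control (blue, 218 members) and SC300 (red, 179 members), with exact 95% binomial intervals. Cartpt stands at 5.50% and 17.3% and Th at 7.34% and 2.23%, whereas Sst, Gal, Npy, Agrp and Trh lie close together in both libraries.

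The genes of GABA handling differed little. Abat, the transaminase that breaks GABA down, had 51.0 CPM in Control and 45.6 CPM in SC300 (-0.16). None of 6 tested genes for GABA uptake, breakdown and chloride was past 2-fold (median -0.13). Of 11 GABA receptor subunits none was past it either, although 8 lay below 0, as did 59.4% of all tested genes, and the median was -0.22. Gabbr2, a metabotropic subunit, stood at -0.49 (-0.74 to -0.24), while its partner Gabbr1 (-0.06) and the subunit Gabrb1 (0.04) lay near 0.

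Lists of synaptic and electrical genes were level. The medians were 0.02 for 19 genes of vesicles and release, 0.03 for 9 glutamate receptor subunits, -0.09 for 18 channels and 0.08 for 9 calcium-binding proteins, a list that does not hold S100g, with no gene past 2-fold in any of them. Of all genes 1.99% were past 2-fold in either direction. Of 21 homeodomain and patterning factors 1 was, Nr4a2, an orphan receptor tied to dopamine neurons, with 184 UMIs in Control (26.8 CPM) and 42 in SC300 (7.02 CPM) (-1.93); 3 members held 36.4% of its Control UMIs. Dlx1 (-0.04), Dlx5 (-0.08), Isl1 (0.08) and Six6 (-0.10) differed by less than counting error. Of 10 peptide and amine receptors 1 was past 2-fold, Galr1, a galanin receptor (76 and 26 UMIs, -1.35), and Htr2c stood at -0.68 (-0.88 to -0.48). None of the 13 mitochondrially encoded respiratory genes was past it (median 0.13), nor any of 11 clock genes (median -0.16, all 11 below 0, against 59.4% of all tested genes), of which Rorb (-0.85) and Per2 (-0.80) were lowest.

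Immediate-early genes, which respond to neuronal activity and also to handling of cells, were lower in SC300 as a list without any member past 2-fold. The median log2 ratio of 12 genes was -0.57, and 10 of the 12 lay below 0, against 59.4% of all tested genes. Jund had 328 CPM in Control and 188 CPM in SC300 (-0.80, -0.90 to -0.69), Btg2 137 CPM in Control and 83.4 CPM in SC300 (-0.71), Egr1 129 CPM in Control and 82.3 CPM in SC300 (-0.65) and Jun 216 CPM in Control and 145 CPM in SC300 (-0.57), while Fos differed less (328 CPM in Control and 274 CPM in SC300, -0.26). Fosb (0.28) and Nptx2 (0.94), a secreted pentraxin, were higher in SC300. The same list had a median of -0.29 over 10 genes in glutamatergic neurons, -0.32 over 10 in mature oligodendrocytes, -0.08 over 13 in microglia and 0.56 over 12 in astrocytes.

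Markers of other cells were present in a minority of members and moved between the libraries. The 6 astrocyte markers, led by Agt, summed to 409 CPM in Control and 141 CPM in SC300, none at 0, and 4 of 5 tested were past 2-fold and lower. Without the marked members the sums were 43.1 and 28.7 CPM. The 6 markers of mature oligodendrocytes, led by Mag, went the other way, with 29.7 and 105 CPM, and 29.9 and 27.1 CPM without marked members. Ependymal markers, led by Dynlrb2, summed to 62.8 and 8.69 CPM and microglia markers, led by C1qa, to 23.5 and 46.0 CPM. Haemoglobin genes, led by Hba-a2, summed to 1109 CPM in Control, where 3 members held 90.2% of the UMIs, and to 44.6 CPM in SC300. The 3 macrophage markers summed to 0.583 and 2.01 CPM, all of it Mrc1, with Pf4 and Cd163 at 0. Tanycyte markers summed to 17.6 and 54.8 CPM, led by Crym (118 and 310 UMIs, log2 ratio 1.59), of which 3 members held 50.8% and 60% of the UMIs, with the defining genes Rax and Col23a1 at 0. The part of these cells in the differences between libraries was not tested beyond leaving the marked members out. Without the marked members, S100g stood at 5.77, Greb1 at 2.84, Ddc at -1.79, Th at -1.34 and Cartpt at 1.47.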

How the data were processed

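Hypothalamic tissue of 3 rats per group was pooled, dissociated with collagenase and made into 1 library of 3′ transcript ends per group with the 10x Genomics Chromium kit. The authors deposited UMI counts per gene and barcode, not normalized, made with Cell Ranger (version 3.0.1 per the file headers) against a rat transcriptome. The methods also name a step that combined the libraries, and whether it thinned the deposited counts is not given in the sources used here. The files hold 4488 and 4524 barcodes, equal to the cells that the methods count as analysed; 4296 and 4379 of them reached the 200 detected genes the methods ask for, and the methods also give a smaller number of cells obtained per library.

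The counts of gene IDs with the same symbol were summed. Members were chosen by the limits given above, UMIs were summed over members per library and divided by the sum over all genes, and log2 ratios were formed without a pseudocount, a sum of 0 being set at 3 UMIs. Intervals are 95% Clopper-Pearson, exact Poisson or conditional binomial intervals. Genes needed 100 UMIs, and past 2-fold in either direction was the criterion. Members and lists were chosen with earlier results of these data known. Genes were named from fixed lists and, by size, as the 10 highest and 10 lowest of the spread set, the 15 and 10 furthest apart between neuronal classes and the 15 most concentrated. Some genes that these rules select are not reported here; they were kept in every fit and count. Analyses used Python 3.11.15, numpy 2.4.6, scipy 1.17.1, pandas 2.3.3 and scanpy 1.11.5 (Scrublet), and were tested on simulated data. Leaving out members with markers of another class and genes concentrated in 3 members were alternatives chosen after seeing the data.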

Additional observations from a re-analysis of the deposited data

How the results depend on the processing

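No paired analysis was possible because each group is 1 library and the result comes from no test. The log2 ratio of the share of GABAergic neurons among barcodes kept was -0.28 and moved to -1.16 at no more than 10% mitochondrial UMIs. The 73 higher genes became 45 at that limit, 21 with members thinned to 10000 UMIs, 126 with 50 UMIs required, 37 with 200, 1490 with 1, 190 at 1.5-fold and 28 without genes concentrated in 3 members. The 88 lower genes became 56 and 44 at limits of 20% and 10% mitochondrial UMIs, 45 without doublets, 21 thinned, 166 with 50 UMIs required, 36 with 200, 1550 with 1, 249 at 1.5-fold, 38 without members marked by another class and 25 without concentrated genes. Between neuronal classes the 90 higher genes became 229 at 1.5-fold, and the 83 lower became 133 with 50 UMIs required and 187 at 1.5-fold. Of 695 values of 58 single genes, 554 moved by less than their interval, 136 by more, and 5 changed sign: Cartpt (-1.05) and Cck (-4.24) at 10% mitochondrial UMIs, and Galp there (0.40, from 6 and 0 UMIs with the 0 set at 3), at 5 neuronal genes (3.10) and without the 3 highest members (1.45). The sign of 0.40 is set by that floor; the other causes were not tested. Crh had 2 and 0 UMIs without its 3 highest members, which gave no value. Of 66 shares of peptide-rich members 53 kept within their interval and 13 moved.

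With 1 library of pooled tissue per group, the spread between rats is unknown, and treatment, rat, pool and library cannot be told apart. The depth gives narrow counting intervals to widely spread genes, but genes of a few neurons rest on those neurons, and receptors with under 100 UMIs could not be placed.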

Other observations

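Ddc was named for its low ratio, so the number of members rich in it restates that ratio. In Control 22 of 218 members (10.1%) held 10 or more Ddc UMIs, against 3 of 179 (1.68%) in SC300. At least 1 Ddc UMI was found in 107 members of Control and 64 of SC300. Of the 22 in Control, 10 held a Th UMI and 8 were rich in Th. A UMI of Slc6a3 was held by 9 of the 22 and by no other member of Control. Compared with the remaining members of Control, they were high in Lhx1, a LIM homeodomain factor (40.9 against 6.93 CPM), in Six3 (112 against 43.5) and in Prlr, the prolactin receptor (30.3 against 8.22), and low in Gal (54.6 against 1214).

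Among receptors for metabolic and pituitary hormones, Prlr had 71 UMIs in Control (10.3 CPM) and 104 in SC300 (17.4 CPM) over all members (log2 ratio 0.75, 0.30 to 1.21), Ghr 16.2 CPM in Control and 12.7 CPM in SC300 (-0.35) and Calcr 135 CPM in Control and 107 CPM in SC300 (-0.34). Of 6373 genes with 100 UMIs in each neuronal class, 8 were past 2-fold in opposite directions between the libraries in GABAergic and glutamatergic neurons, and none of these 8 was spread over the members of both classes.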
